A study of Homo sapiens with 12 samples.

Results

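The G1 cyclins and CDK inhibitors examined here are 10 genes, chosen by their symbols from the 45416 genes of the deposited table. They are the D-type cyclins *CCND1*, *CCND2* and *CCND3*, the E-type cyclin *CCNE1*, the CIP/KIP inhibitors *CDKN1A*, *CDKN1B* and *CDKN1C*, and the INK4 inhibitors *CDKN2A*, *CDKN2B* and *CDKN2C*. The 10 genes were found once each, and their values in all 12 libraries were used. Of these, 7 had enough reads to be tested, and *CDKN2A*, *CDKN2B* and *CDKN2C* had 0 reads in every library.

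RNA was sequenced from U251, an established human glioblastoma cell line, in 6 groups of 2 libraries. Cells were transfected with a control siRNA (siNC) or with 1 of 2 siRNAs against *PD-L1* (siPDL1-1 and siPDL1-2), and 48 h after transfection were left unstimulated or given interferon gamma (IFNγ) at 100 U/ml for 24 h. All groups therefore shared a transfection, and the siNC libraries served as the control of both siRNAs. The labels number the libraries of a group 1 and 2, the study's text describes independent experiments, and p-values measure the spread between these libraries of 1 cell line.

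Reads on genes ranged from 17101069 in siPDL1-2 with IFNγ, replicate 1, to 55657393 in siNC with IFNγ, replicate 1. Values are CPM, the reads on a gene relative to the size of its library, as scaled in the deposited table. Glial and glioma markers were at unequal levels. *VIM* averaged 3502 CPM, *CD44* 523 CPM, *SOX2* 161 CPM and *NES* 156 CPM, whereas the astrocyte gene *GFAP* lay between 1.92 and 7.25 CPM and *OLIG2* and *AQP4* averaged 0.127 and 0.212 CPM. Of 7 markers of immune, endothelial, epithelial and neuronal cells, none averaged more than the 0.364 CPM of *RBFOX3*, and *MS4A1* had 0 reads.

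As background, D-type cyclins bind CDK4 and CDK6, and cyclin E binds CDK2. These kinases phosphorylate the retinoblastoma protein, which frees E2F transcription factors and lets a cell pass from G1 into S phase. INK4 proteins (p16, p15 and p18, from *CDKN2A*, *CDKN2B* and *CDKN2C*) bind CDK4 and CDK6, while CIP/KIP proteins (p21, p27 and p57, from *CDKN1A*, *CDKN1B* and *CDKN1C*) bind cyclin-CDK complexes more widely. Loss of the *CDKN2A* locus is a common lesion of glioblastoma, and IFNγ is known to slow the growth of many cell types. Much of the control of p27 acts on the protein, which RNA values do not show.

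The promoters of *CDKN1B* and *CDKN1A* are shown because both inhibitors recur in the results below and each has a start site in the table of sequences used. Each line gives the 250 bases before a start site on the plus strand, from RefSeq on GRCh38.p14, with the GC box GGGCGG and the CCAAT box, on either strand, in capitals. The *CDKN1B* window is chr12:12717118-12717367 and the *CDKN1A* window is chr6:36678464-36678713.
CDKN1B: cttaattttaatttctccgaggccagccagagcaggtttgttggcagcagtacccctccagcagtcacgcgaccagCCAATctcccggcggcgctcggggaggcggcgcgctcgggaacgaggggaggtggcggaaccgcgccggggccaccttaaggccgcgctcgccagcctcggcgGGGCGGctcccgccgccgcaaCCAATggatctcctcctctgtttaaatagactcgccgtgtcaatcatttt
CDKN1A: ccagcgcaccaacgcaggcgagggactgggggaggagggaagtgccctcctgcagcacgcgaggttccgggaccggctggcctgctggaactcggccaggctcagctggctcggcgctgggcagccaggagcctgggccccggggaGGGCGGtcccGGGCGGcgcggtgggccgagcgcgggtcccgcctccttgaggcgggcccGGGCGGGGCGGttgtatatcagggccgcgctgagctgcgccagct
The *CDKN1B* window held 1 GC box and 2 CCAAT boxes, and the *CDKN1A* window held 4 GC boxes, of which the last 2 share a G, and no CCAAT box. Of all 35116 RefSeq windows of this length, 42.64% held GGGCGG and 32.01% held CCAAT. A match describes the letters only. *CCND1*, *CCND2* and *CDKN1C* had no window in the table.

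The targeted gene and the response to IFNγ were read first. *CD274*, which encodes PD-L1 (chr9:5450503-5470566), was 4.60 and 4.91 CPM with siNC, 2.67 and 2.73 CPM with siPDL1-1 and 3.57 and 3.45 CPM with siPDL1-2 in unstimulated cells. After IFNγ it was 71.2 and 76.0 CPM with siNC, 60.9 and 66.7 CPM with siPDL1-1 and 37.5 and 35.0 CPM with siPDL1-2. Both siRNAs thus lay below siNC in every library, by unequal amounts. On the scale of log2(CPM + 1), which understates the change of a gene at so few CPM, the difference from siNC was -0.64 with siPDL1-1 (FDR = 1.76e-05) and -0.35 with siPDL1-2 (FDR = 0.00183) in unstimulated cells, and -0.20 with siPDL1-1 (FDR = 0.0498, limma) and -1.001 with siPDL1-2 (FDR = 4.25e-07) after IFNγ. In cells given IFNγ, the lower *CD274* with siPDL1-1 did not pass the FDR threshold of 0.01, which limits what that group can show about PD-L1. The IFNγ targets *IRF1* and *GBP1* rose with every siRNA, with *IRF1*, a transcription factor, going from 17.9 ± 2.34 to 540 ± 13.3 CPM with siNC (mean ± SD, n = 2). Their responses were not equal, as *IRF1* after IFNγ was lower with siPDL1-1 than with siNC (log2 -0.63, FDR = 9.13e-06) and the IFNγ effect on *GBP1* was larger with siPDL1-1 (difference 0.61, FDR = 0.000293). After IFNγ both were also lower with siPDL1-2 than with siNC, *IRF1* by log2 -0.50 (FDR = 0.00014) and *GBP1* by -0.46 (FDR = 3.99e-05, limma), past the FDR threshold and short of the fold threshold. Of 8 tested glial and glioma markers, IFNγ raised *SOX2* by 0.66 with siNC and by 0.60 with siPDL1-1, and lowered *GFAP* by 0.62 with siNC, by 0.68 with siPDL1-1 and by 1.33 with siPDL1-2, where 8.12%, 6.87% and 5.27% of all genes were called with siNC, siPDL1-1 and siPDL1-2. In unstimulated cells *CHI3L1* (0.64) and *GFAP* (0.59) were called higher with siPDL1-1 than with siNC (4.00% of all genes called), and *S100B* (0.90) and *SOX2* (0.59) with siPDL1-2 (6.17%). After IFNγ none of the 8 was called against siNC with siPDL1-1 (5.47%) or siPDL1-2 (3.13%), and *GFAP* was higher with siPDL1-1 than with siPDL1-2 (0.77; 2.23% of all genes called). The dependence of the siPDL1-2 effect on IFNγ was called for *GFAP* (-0.71; 7.62%). With 8 genes, these counts are too few to set the list apart from the shares of all genes. The part of these markers in the values of the members was not tested. The 3 tested markers of other cell types were called in no comparison.

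Differences below are on the scale of log2(CPM + 1), from limma over 17982 genes. A gene is called changed at FDR < 0.01 and a fold change above 1.5, a log2 difference of 0.585, and comparisons that use siNC libraries share them. In bulk RNA, fewer cells with a transcript and less of it per cell cannot be told apart.

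The members spanned a wide range of levels. Per kb of exon (GENCODE release 44, union of exons), *CDKN1A* was highest with a mean of 23.2 CPM per kb over the 12 libraries (19.4 to 29.7), followed by *CCND3* at 14.8 (10.3 to 22.4), *CCND1* at 10.5 (6.57 to 13.9) and *CDKN1B* at 5.59 (4.01 to 8.92). *CCNE1* followed at 2.50 CPM per kb (1.95 to 3.13), then *CDKN1C* at 1.41 (0.638 to 2.37) and *CCND2* at 0.481 (0.371 to 0.654). The ranges of neighbours in this order overlapped in every case except *CDKN1B* and *CCNE1*. Within unstimulated siNC cells alone, each neighbouring pair differed by more than the SD of its 2 libraries. With the length of the longest transcript in place of the union, *CCND3* stood above *CDKN1A* and *CDKN1B* above *CCND1*, so neither pair has a settled order.

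**Figure D1:**
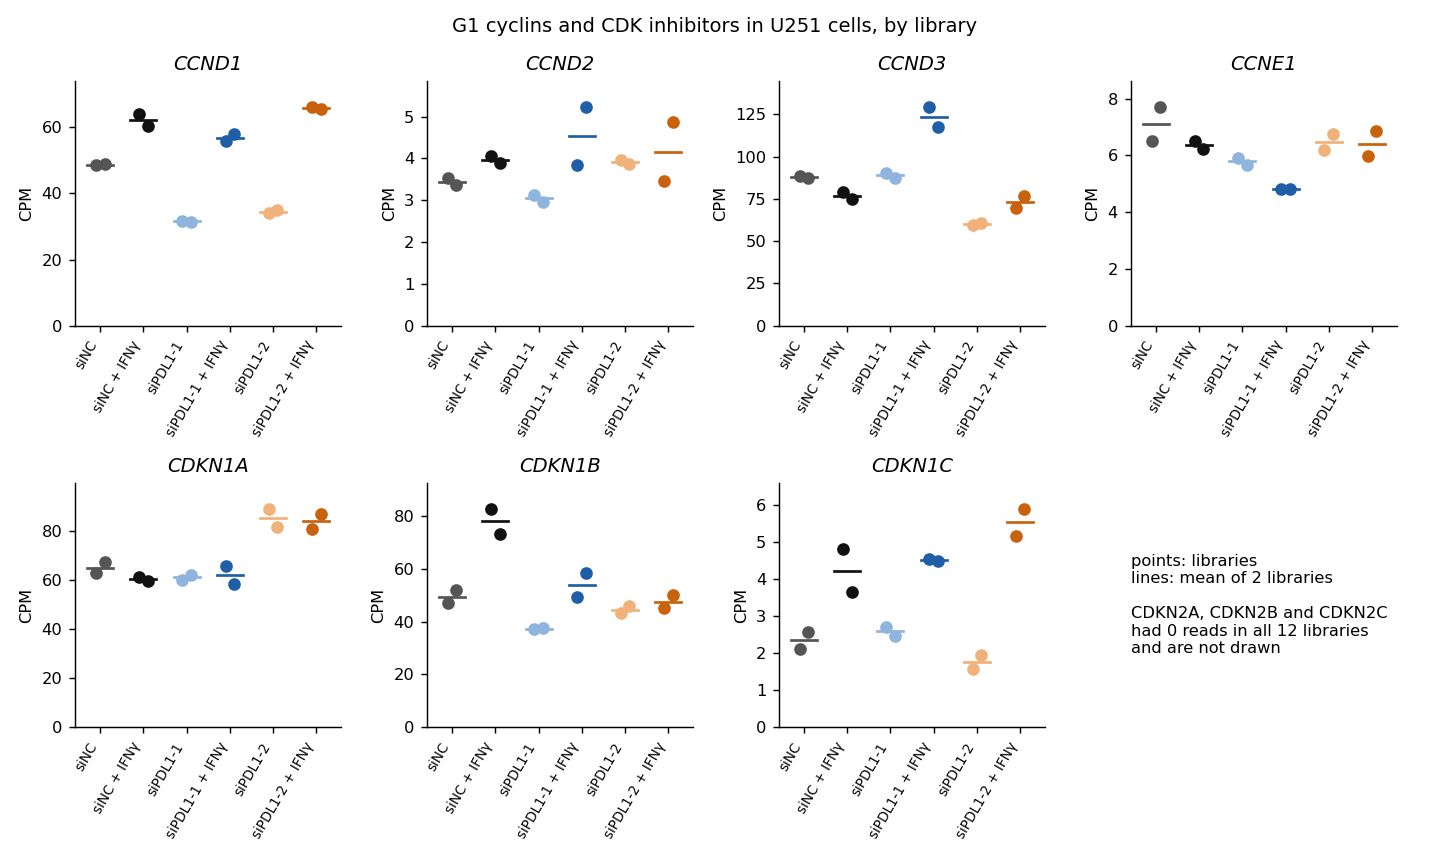
CPM (y axis, from 0) of the 7 members with reads in each of the 12 libraries (points), by siRNA and IFNγ (x axis), with lines at the mean of 2 libraries. *CCND1* is lowest in the 4 unstimulated siPDL1 libraries, *CCND3* is highest in the 2 siPDL1-1 libraries given IFNγ and *CDKN1A* is highest in the 4 siPDL1-2 libraries.

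*CCND1* (chr11:69641156-69654474, plus strand), which encodes cyclin D1, was 48.7 and 48.8 CPM with siNC, 31.7 and 31.3 CPM with siPDL1-1 and 34.1 and 35.0 CPM with siPDL1-2 in unstimulated cells. With IFNγ it was 64.2 and 60.4 CPM with siNC, 55.8 and 58.0 CPM with siPDL1-1 and 66.1 and 65.5 CPM with siPDL1-2. The unstimulated siPDL1 libraries were therefore the 4 lowest of all, and the 6 IFNγ libraries the highest. *CCND1* fell by 0.61 on the log2 scale with siPDL1-1 in unstimulated cells (SE 0.0511, FDR = 5.5e-07). With siPDL1-2 the difference was -0.49 (SE 0.0511, FDR = 4.16e-06), short of the fold threshold. IFNγ raised *CCND1* 1.78-fold with siPDL1-1 (log2 0.83, FDR = 5.07e-09) and 1.88-fold with siPDL1-2 (log2 0.91, FDR = 2.25e-09), against 1.27-fold with siNC (log2 0.35, FDR = 7.23e-05). After IFNγ the difference from siNC was -0.13 with siPDL1-1 (95% interval -0.24 to -0.02, FDR = 0.0653) and 0.08 with siPDL1-2 (-0.03 to 0.19, FDR = 0.272).

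The dependence of the knockdown difference on IFNγ was tested directly. For *CCND1* it was 0.49 with siPDL1-1 (SE 0.0723, FDR = 0.000877) and 0.56 with siPDL1-2 (SE 0.0723, FDR = 9.78e-05), both past the FDR threshold and short of the fold threshold, although with siPDL1-2 it passed both in edgeR (0.61) and DESeq2 (0.62). *LTO1* overlaps *CCND1* on the opposite strand at a mean of 15.5 CPM, and since reads were counted without regard to strand, reads in the overlap cannot be told apart.

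*CCND3* (chr6:41934934-42050357, minus strand), which encodes cyclin D3, behaved differently between the siRNAs. It was 88.6 and 87.1 CPM with siNC, 90.2 and 87.6 CPM with siPDL1-1 and 59.3 and 60.6 CPM with siPDL1-2 in unstimulated cells. In cells given IFNγ it was 78.8 and 75.1 CPM with siNC, 129 and 118 CPM with siPDL1-1 and 69.8 and 76.8 CPM with siPDL1-2. The siPDL1-1 libraries given IFNγ were above all other libraries, and the unstimulated siPDL1-2 libraries below all others. After IFNγ, *CCND3* was 1.60-fold higher with siPDL1-1 than with siNC (log2 0.67, SE 0.0566, FDR = 3.36e-07) and 1.68-fold higher than with siPDL1-2 (log2 0.74, SE 0.0566, FDR = 2.69e-07). In unstimulated cells the difference from siNC was 0.02 with siPDL1-1 (FDR = 0.865) and -0.54 with siPDL1-2 (FDR = 3.81e-06), the latter short of the fold threshold but past it in DESeq2 (-0.59). IFNγ itself moved *CCND3* by -0.19 with siNC (FDR = 0.0153), 0.47 with siPDL1-1 (FDR = 1.22e-05) and 0.28 with siPDL1-2 (FDR = 0.00168). The difference between the siPDL1-1 and siNC responses was 0.66 (SE 0.0801, FDR = 1.10e-04), and *CCND3* was the member called for it. For siPDL1-2 it was 0.47 (SE 0.0801, FDR = 0.000605), short of the fold threshold. No gene with reads overlaps *CCND3*.

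*CCND2* (chr12:4269771-4305353, plus strand), which encodes cyclin D2, stayed between 2.97 and 5.22 CPM, and none of its differences passed the thresholds with all 12 libraries. Its highest library was siPDL1-1 with IFNγ, replicate 2, at 5.22 CPM, beside 3.83 CPM in replicate 1. The IFNγ effect with siPDL1-1 was log2 0.44 (FDR = 0.0245, limma). That effect was 0.62 and was called without that replicate 1, and it was 0.25 without replicate 2, so it depends on single libraries. *AC008012.1* overlaps *CCND2* on the same strand at a mean of 4.92 CPM, more than the 3.84 CPM of *CCND2* itself, so its values are uncertain.

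Within the D-type cyclins the share of *CCND1* differed between groups. Per kb of exon, *CCND1* made up 39.3% and 39.7% of the 3 transcripts in unstimulated siNC cells, 29.3% and 29.7% with siPDL1-1 and 39.9% and 40.02% with siPDL1-2. After IFNγ the share was 48.7% and 48.4% with siNC, 33.8% and 36.6% with siPDL1-1 and 52.5% and 49.7% with siPDL1-2. It was higher after IFNγ with every siRNA, and lower with siPDL1-1 than with the other siRNAs both before and after. The sum of the 3 ranged from 17.9 CPM per kb in unstimulated siPDL1-2, replicate 1, to 34.6 in siPDL1-1 with IFNγ, replicate 1. The shares depend on the lengths, since by the longest transcript the *CCND1* share in unstimulated siNC cells was 23.4% and 23.8%.

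**Figure D2:**
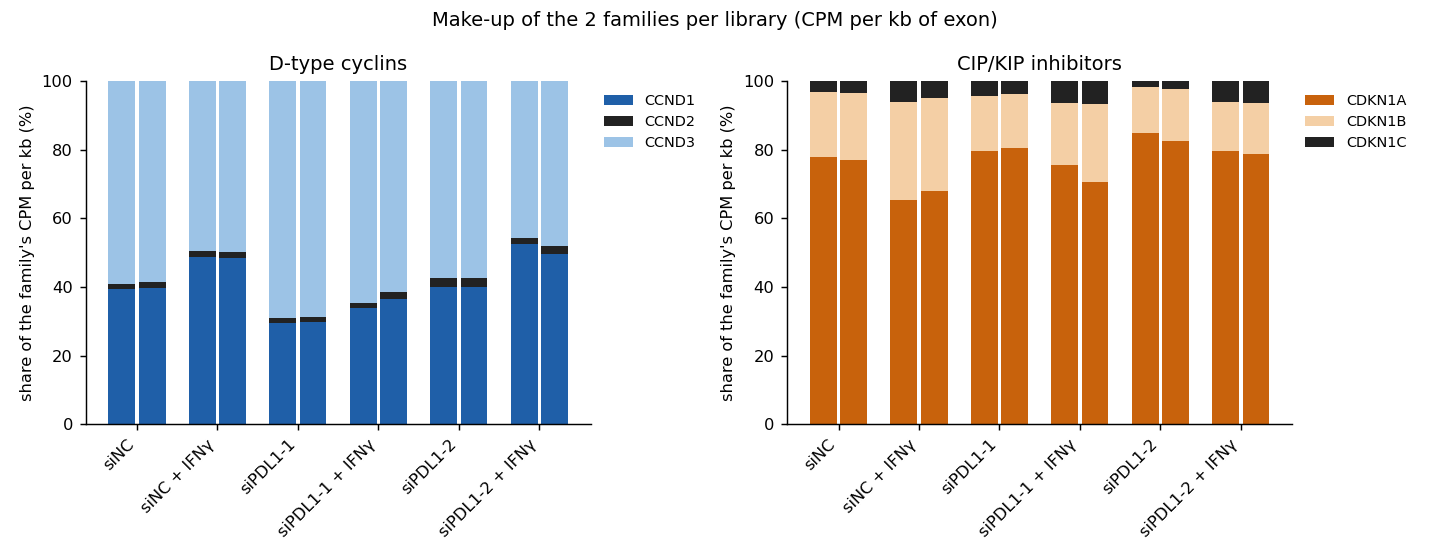
Share (y axis, percent of the summed CPM per kb of exon) of each D-type cyclin (left) and each CIP/KIP inhibitor (right) in the 12 libraries, 1 bar per library, by siRNA and IFNγ (x axis). The *CCND1* share is lowest in the unstimulated siPDL1-1 libraries (29.3% and 29.7%), and the *CDKN1B* share is highest in the siNC libraries given IFNγ (28.5% and 27.1%).

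*CCNE1* (chr19:29811991-29824312, plus strand), which encodes cyclin E1, ranged from 4.80 to 7.69 CPM. It was lowest in siPDL1-1 with IFNγ, at 4.82 and 4.80 CPM, against 6.50 and 6.23 CPM with siNC, a log2 difference of -0.34 (95% interval -0.56 to -0.12, FDR = 0.0173). None of its comparisons passed the FDR threshold.

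*CDKN1A* (chr6:36676460-36687337, plus strand), which encodes p21 and is a standard target of p53, was 62.8 and 67.2 CPM with siNC, 60.04 and 62.0 CPM with siPDL1-1 and 88.9 and 81.4 CPM with siPDL1-2 in unstimulated cells. With IFNγ the values were 61.4 and 59.4 CPM with siNC, 65.8 and 58.2 CPM with siPDL1-1 and 80.9 and 87.0 CPM with siPDL1-2. All 4 siPDL1-2 libraries were above the other 8. The difference between siPDL1-2 and siNC was 0.38 in unstimulated cells (SE 0.065, FDR = 0.000255) and 0.47 after IFNγ (SE 0.065, FDR = 9.58e-05), a fold of 1.31 and 1.38 that is short of the fold threshold. Between siPDL1-1 and siPDL1-2 it was -0.47 in unstimulated cells (FDR = 6.69e-05) and -0.43 after IFNγ (FDR = 0.000261). IFNγ left no difference past the threshold with any siRNA, with values of -0.10 with siNC (95% interval -0.24 to 0.04), 0.02 with siPDL1-1 (-0.12 to 0.16) and -0.02 with siPDL1-2 (-0.16 to 0.12).

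Other genes known to respond to p53 were called in both directions against siNC. Of 22 tested, 3 were called higher and 3 lower with siPDL1-2 in unstimulated cells, where 6.17% of all genes were called, and the median difference was 0.056 beside 0.028 over all genes. *ZMAT3*, an RNA-binding protein, rose by 1.57, *TP53INP1* by 0.95 and *TIGAR*, a regulator of glycolysis, by 0.80 on the log2 scale, whereas *PLK2* fell by 0.96, *BBC3* by 0.64 and *AEN* by 0.64. With siPDL1-1 in unstimulated cells 2 of 22 were higher and 5 lower (4.00% of all genes called, median 0.053 beside 0.016). *ZMAT3* rose by 0.73 there and *TIGAR* by 0.64, while *PLK2* fell by 0.88, *BBC3* by 0.84 and *MDM2*, which marks p53 for degradation, by 0.71. After IFNγ, 3 were higher and 3 lower with siPDL1-1 (5.47% of all genes called, median 0.143 beside -0.005), and 2 higher and 1 lower with siPDL1-2 (3.13%, median 0.153 beside -0.006). Of these, *GDF15* rose by 0.70 with siPDL1-1 and 0.64 with siPDL1-2, and *CCNG1* fell by 0.59 and 0.97. Between the siRNAs, 0 were higher and 5 lower with siPDL1-1 than with siPDL1-2 in unstimulated cells (4.35% of all genes called, median -0.059 beside 0.001), among them *ZMAT3* (-0.85), *RRM2B*, a subunit of ribonucleotide reductase (-0.85), and *MDM2* (-0.81), and none was called after IFNγ (2.23%, median 0.034 beside -0.001). For IFNγ itself 3 were higher and 2 lower with siNC (8.12% of all genes called, median -0.068 beside 0.001), 1 higher with siPDL1-1 (6.87%, median 0.058 beside -0.016) and 2 lower with siPDL1-2 (5.27%, median -0.068 beside -0.015). The dependence on IFNγ was called for 1 with siPDL1-1 (0.968% of all genes) and for 7 with siPDL1-2, 2 upward and 5 downward (7.62%).

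*CDKN1B* (chr12:12715058-12722369, plus strand), which encodes p27, was 46.9 and 51.9 CPM with siNC, 37.1 and 37.6 CPM with siPDL1-1 and 43.2 and 45.8 CPM with siPDL1-2 in unstimulated cells. After IFNγ it was 82.6 and 73.2 CPM with siNC, 49.4 and 58.2 CPM with siPDL1-1 and 45.04 and 50.04 CPM with siPDL1-2. The 2 siNC libraries given IFNγ stood above the other 10. IFNγ raised *CDKN1B* 1.56-fold with siNC (log2 0.65, SE 0.0831, FDR = 2.87e-05). The effect was 0.51 with siPDL1-1 (FDR = 0.000273) and 0.09 with siPDL1-2 (95% interval -0.09 to 0.27, FDR = 0.449), neither past both thresholds. After IFNγ, *CDKN1B* fell by 0.70 with siPDL1-2 relative to siNC (SE 0.0831, FDR = 3.5e-05), and with siPDL1-1 the difference was -0.53 (SE 0.0831, FDR = 0.000211), short of the fold threshold. The siPDL1-2 response to IFNγ differed from that of siNC by -0.55 (SE 0.1175, FDR = 0.00317), short of the fold threshold, and the siPDL1-1 response by -0.13 (SE 0.1175, FDR = 0.647). The rise with siNC was close to the fold threshold, since it was 0.57 without unstimulated siNC replicate 1 and 0.56 without IFNγ-stimulated siNC replicate 1. *AC008115.3*, on the same strand, overlaps *CDKN1B* at a mean of 0.915 CPM beside 51.8 CPM.

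*CDKN1C* (chr11:2883213-2885775, minus strand), which encodes p57, rose after IFNγ with every siRNA at a low level. It was 2.11 and 2.58 CPM with siNC, 2.70 and 2.47 CPM with siPDL1-1 and 1.58 and 1.95 CPM with siPDL1-2 in unstimulated cells. In IFNγ-stimulated cells it was 4.79 and 3.65 CPM with siNC, 4.54 and 4.47 CPM with siPDL1-1 and 5.16 and 5.88 CPM with siPDL1-2. The lowest IFNγ library, at 3.65 CPM, was above the highest unstimulated library, at 2.70 CPM. The log2 rise was 0.64 with siNC (SE 0.131, FDR = 0.00124), 0.62 with siPDL1-1 (SE 0.131, FDR = 0.00184) and 1.24 with siPDL1-2 (SE 0.131, FDR = 4.26e-06). Without replicate 1 of either siNC group it was 0.54 and 0.48 (FDR = 0.0192 and 0.0245), and without unstimulated siPDL1-1 replicate 1 or 2 it was 0.67 and 0.57 (FDR = 0.0113 and 0.0245), each no longer past the thresholds. The larger rise with siPDL1-2 than with siNC was not past the FDR threshold (difference 0.60, SE 0.1853, FDR = 0.0244).

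The CIP/KIP family was dominated by *CDKN1A*, with between 65.4% and 84.8% of the summed CPM per kb. *CDKN1B* made up 18.9% and 19.3% in unstimulated siNC cells and 28.5% and 27.1% after IFNγ. With siPDL1-1 it made up 16.0% and 15.8% before and 18.3% and 22.85% after IFNγ, and with siPDL1-2 13.4% and 15.03% before and 14.3% and 14.7% after. By the longest transcript the *CDKN1A* share spanned 55.7% to 78.4%.

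**Figure D3:**
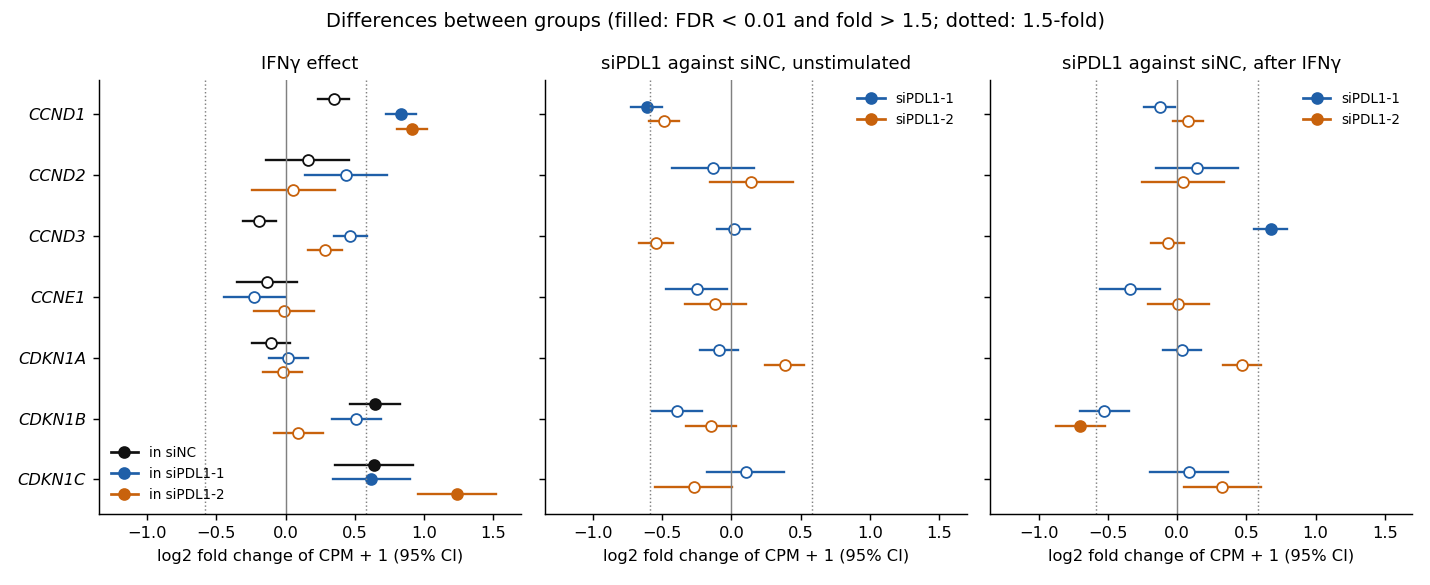
Log2 fold change of CPM + 1 with its 95% interval (x axis) for the 7 tested members (y axis), for IFNγ with each siRNA (left) and for each *PD-L1* siRNA against siNC in unstimulated cells (middle) and after IFNγ (right), with filled points for members past FDR < 0.01 and 1.5-fold (dotted lines). *CDKN1C* is filled for all 3 siRNAs on the left, and the filled points in the other panels are *CCND1*, *CCND3* and *CDKN1B*.

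Counted by comparison, few members were called, and the share of all tested genes called in either direction is given beside each count. IFNγ raised 2 of 7 members with siNC (*CDKN1B* and *CDKN1C*; 8.12% of all genes), 2 with siPDL1-1 (*CCND1* and *CDKN1C*; 6.87%) and 2 with siPDL1-2 (*CCND1* and *CDKN1C*; 5.27%), and lowered none. In unstimulated cells 1 member was called with siPDL1-1 (*CCND1*, lower; 4.00% of all genes) and 0 with siPDL1-2 (6.17%). With siPDL1-2, 3 members passed the FDR threshold alone, as did 5107 of the 17982 genes tested. After IFNγ 1 member was called with siPDL1-1 (*CCND3*, higher; 5.47%) and 1 with siPDL1-2 (*CDKN1B*, lower; 3.13%). Between the siRNAs 0 members were called in unstimulated cells (4.35% of all genes) and 1 after IFNγ (*CCND3*; 2.23%). By FDR alone 2 members passed in unstimulated cells, as did 4338 of the 17982 genes. For the dependence on IFNγ, 1 was called with siPDL1-1 (*CCND3*; 0.968% of all genes) and 0 with siPDL1-2 (7.62%). For that dependence with siPDL1-2, 3 members passed by FDR alone, as did 3067 of the 17982 genes. With 7 members tested, 1 or 2 calls are too few to set them apart from the shares of all genes.

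The 3 INK4 members were listed at 0 reads of the 417676108 on genes in all 12 libraries, which allows at most 0.00718 CPM over all libraries and between 0.0562 and 0.176 CPM in a library, counting error only. They are *CDKN2A* (chr9:21967752-21995301, minus strand), *CDKN2B* (chr9:22002903-22009305, minus strand) and *CDKN2C* (chr1:50960745-50974634, plus strand), so no comparison can be made for them. The fourth INK4 gene, *CDKN2D*, which encodes p19 and was not among the members, was present in every library at 13.4 to 20.2 CPM.

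Genes next to *CDKN2A* were also at 0. Of the 18 genes within 500 kb, 11 had 0 reads. Genes at 0 were common in the whole table, where 29818 of 45416 genes had any read. The 11 included a run of 8 in order of their starts, from *AL359922.3* to *AL354709.2*, over 235.9 kb (chr9:21892188-22128103). *CDKN2A-DT*, *CDKN2A*, *CDKN2B-AS1* and *CDKN2B* were among the 8. Whether 11 of 18 exceeds the share of all genes was not tested. On its centromeric side *DMRTA1*, a transcription factor gene, was at 4.16 to 5.42 CPM, and on the other side *MTAP*, which encodes an enzyme of methionine salvage and overlaps the start of the run, was at 86.1 to 127 CPM. *AL359922.1*, a transcript that starts with *MTAP* and crosses *CDKN2A* and *CDKN2B* on the other strand, had 53 reads in all.

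*CDKN2C* lay in a similar stretch, which was looked at after its values had been seen. Of the 16 genes within 500 kb, 8 had 0 reads, where 29818 of all 45416 genes had any read. Of these 8, 7 were consecutive by start, from *FAF1-AS1* to *Y_RNA_22*. The 7 include the small RNA genes *RNU6-1026P*, *MIR4421*, *MIR6500* and *Y_RNA_22*. *FAF1*, a gene of the ubiquitin pathway that is widely expressed, had 4 reads in all, a mean of 0.00930 CPM. On the other side *RNF11* was at 68.0 to 128 CPM and *EPS15* at 34.0 to 82.2 CPM. Only RNA was measured in these libraries.

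**Figure D4:**
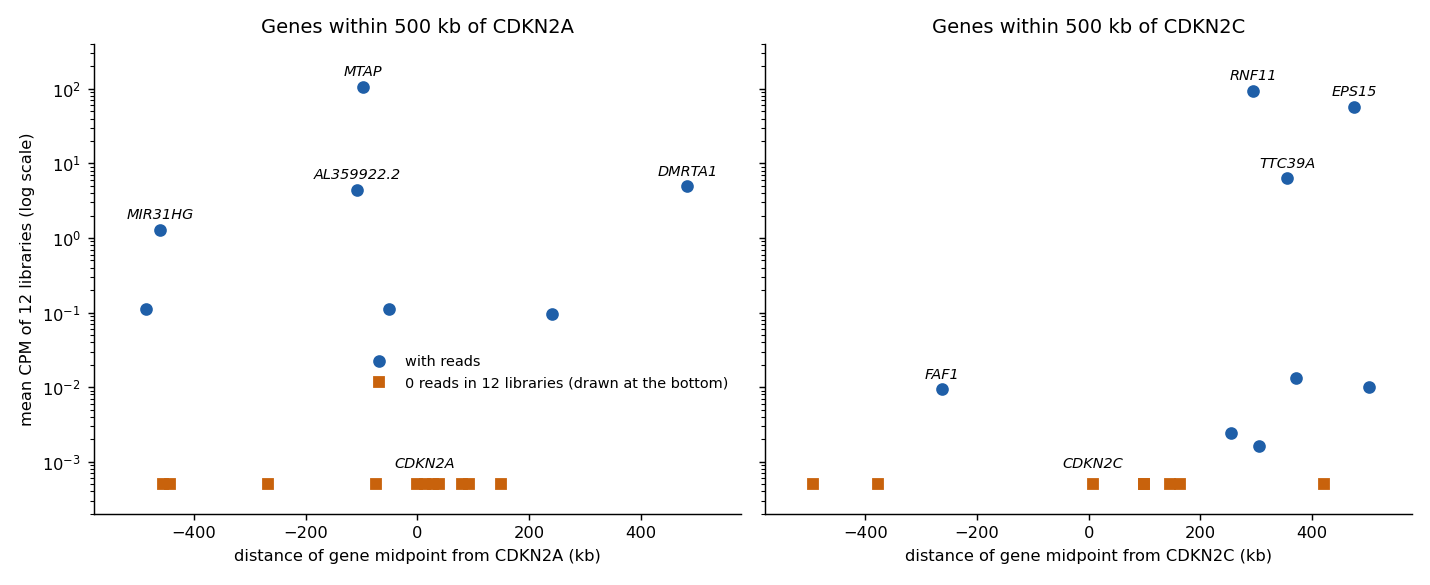
Mean CPM over the 12 libraries (y axis, log scale) of genes within 500 kb of *CDKN2A* (left) and *CDKN2C* (right), by the distance of each gene's midpoint from the start of that inhibitor in kb (x axis), with genes at 0 reads drawn as squares at the bottom. *MTAP* (mean 106 CPM) and *RNF11* (92.8 CPM) lie near genes at 0 reads, and *FAF1* had 4 reads in all.

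Of 27 other genes of the G1/S pathway, all were tested. The 2 kinases that bind D-type cyclins were well expressed, *CDK4* at 110 to 178 CPM and *CDK6* at 66.7 to 122 CPM, and *CDK2*, the partner of cyclin E, was at 51.4 to 66.3 CPM. IFNγ raised 1 and lowered 2 with siNC (8.12% of all genes called, median 0.022 beside 0.001 over all genes), a count near the share of all genes. None was called with siPDL1-1 (6.87% of all genes called, median -0.001 beside -0.016) or siPDL1-2 (5.27%, median -0.061 beside -0.015). With siNC, *RB1*, which encodes the retinoblastoma protein, rose by 0.71, *E2F1* fell by 0.71 and *E2F2* fell by 0.59.

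In unstimulated cells siPDL1-1 lowered 3 of 27 (4.00% of all genes called, median -0.128 beside 0.016 over all genes). *E2F1*, which drives S-phase genes, fell by 1.07, *CCNA2*, which encodes cyclin A2, by 0.93 and *E2F7*, a repressor of the family, by 0.64. With siPDL1-2, 2 were higher and 2 lower (6.17% of all genes called, median -0.084 beside 0.028). *RB1* rose by 0.80 and *CDK6* by 0.79, while *E2F1* fell by 0.82 and *CDC25A*, a phosphatase that activates CDK2, by 0.62. After IFNγ, siPDL1-1 lowered 3 (5.47% of all genes called, median -0.148 beside -0.005), of which *CCNA2* fell by 1.16, *E2F1* by 0.80 and *E2F7* by 0.74. After IFNγ, siPDL1-2 lowered *E2F7* alone, by 0.74 (3.13% of all genes called, median -0.115 beside -0.006), which is near the share of all genes. Between the siRNAs, *CCNA2* was lower with siPDL1-1 by 0.63 both before and after IFNγ (log2 -0.63, FDR = 1e-05 and 1.13e-05), and *CDK6* by 0.71 in unstimulated cells (log2 -0.71, FDR = 3.57e-07). These were the list's calls between the siRNAs, 2 in unstimulated cells (4.35% of all genes called) and 1 after IFNγ (2.23%). The dependence on IFNγ was called for *RB1* (-0.86) and *CDK6* (-0.78) with siPDL1-2 (7.62% of all genes called), which is near the share of all genes, and for no gene of the list with siPDL1-1 (0.968%). For this dependence the 7.62%, used also for the members and the other lists, moved when 1 library was left out, as given under the processing. Whether the 2 siRNAs differ in that dependence was not tested.

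**Figure D5:**
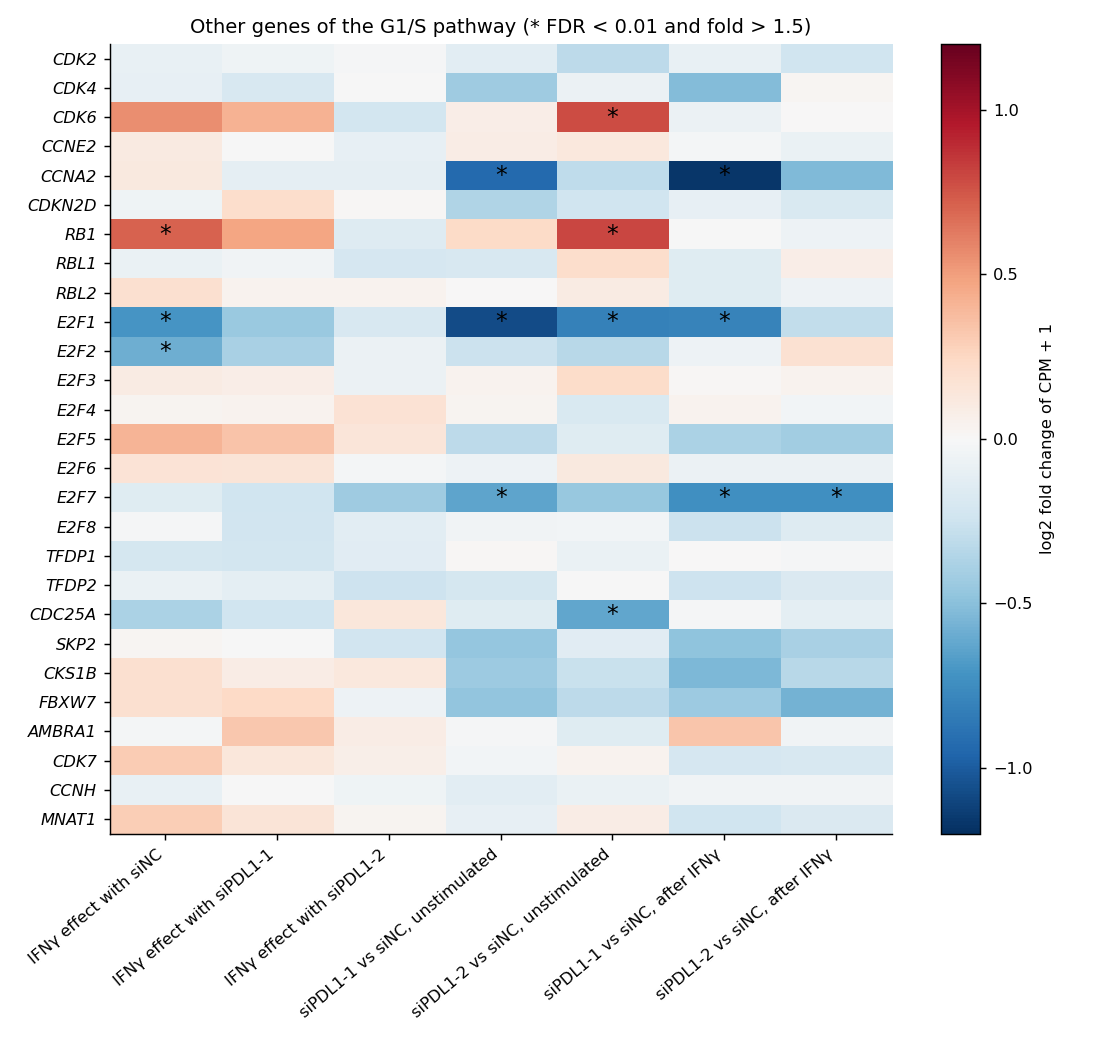
Log2 fold change of CPM + 1 (colour) of 27 other G1/S pathway genes (y axis) in the IFNγ comparisons and the comparisons of each *PD-L1* siRNA with siNC (x axis), with asterisks at FDR < 0.01 and fold change above 1.5. *E2F1* carries an asterisk in 4 of the 7 columns and *E2F7* in 3.

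The summed CPM of 20 proliferation markers was 4014 and 4022 with siNC, 2948 and 2951 with siPDL1-1 and 3230 and 3189 with siPDL1-2 in unstimulated cells. After IFNγ it was 3548 and 3591 with siNC, 2436 and 2406 with siPDL1-1 and 2911 and 2839 with siPDL1-2. The sum was lower in every siPDL1 library than in every siNC library of the same stimulation. *MKI67*, the most abundant of them by its mean over the 12 libraries, though not in every library, was 864 and 886 CPM in unstimulated siNC cells and 405 and 377 CPM in siPDL1-1 cells given IFNγ. In unstimulated cells 6 of 20 fell with siPDL1-1 (4.00% of all genes called, median -0.397 beside 0.016) and 1, *AURKB*, with siPDL1-2 (6.17% of all genes called, median -0.275 beside 0.028), so that the count with siPDL1-2 was no higher than the share of all genes. After IFNγ 10 of 20 fell with siPDL1-1 (5.47% of all genes called, median -0.592 beside -0.005) and 2, *CDK1* and *MKI67*, with siPDL1-2 (3.13% of all genes called, median -0.369 beside -0.006). *CDK1*, the mitotic kinase, fell by 0.97 with siPDL1-1 and by 0.76 with siPDL1-2 after IFNγ. Between the siRNAs none of the 20 was called in unstimulated cells (4.35% of all genes called, median -0.066 beside 0.001) or after IFNγ (2.23%, median -0.249 beside -0.001). For IFNγ itself none was called either, with 17 of 20 below 0 with siNC (8.12% of all genes called, median -0.208 beside 0.001), 19 with siPDL1-1 (6.87%, median -0.291 beside -0.016) and 16 with siPDL1-2 (5.27%, median -0.123 beside -0.015). The dependence on IFNγ was called for *CDK1* alone with siPDL1-2 (-0.61; 7.62% of all genes called, median 0.124 beside -0.014). It was called for none of these markers with siPDL1-1 (0.968%, median -0.097 beside -0.024). The part of these markers in the values of the members was not tested.

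Genes that respond to type I interferon also moved with siPDL1-1, the group in which *CCND3* was highest. The summed CPM of 15 such genes after IFNγ was 554 and 522 with siNC, 5174 and 5074 with siPDL1-1 and 600 and 632 with siPDL1-2. In these libraries 14 of 15 were higher with siPDL1-1 than with siNC (5.47% of all genes called, median 3.36 beside -0.005) and 2 with siPDL1-2 (3.13%, median 0.25 beside -0.006). *IFIT3*, the most abundant of the list by its mean over the 12 libraries, though not in every library, reached 721 CPM. The list's *MX2* rose by 4.79 and *OAS2* by 4.34 with siPDL1-1. In unstimulated cells 11 of 15 were higher with siPDL1-1 (4.00% of all genes called, median 0.934 beside 0.016) and none was called with siPDL1-2 (6.17%). IFNγ itself raised 14 of 15 with each siRNA, with a median of 2.396 with siNC (8.12% of all genes called), 4.90 with siPDL1-1 (6.87%) and 2.66 with siPDL1-2 (5.27%). Between the siRNAs, 10 of 15 were higher with siPDL1-1 in unstimulated cells (4.35% of all genes called) and 14 after IFNγ (2.23%). The dependence on IFNγ was called upward for 14 of 15 with siPDL1-1 (0.968% of all genes called, median 2.424 beside -0.024). With siPDL1-2 it was called upward for 1 and downward for 1 (7.62%). The part of these genes in the higher *CCND3* was not tested.

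The genes most like *CCND1* over the 12 libraries were *LRATD1* (Pearson r = 0.96, Spearman rho = 0.92), *PSRC1* (r = 0.96, rho = 0.87) and *MYO5B* (r = 0.96, rho = 0.96), among 14271 tested genes that averaged 1 CPM or more. *PSRC1* encodes a spindle protein and *MYO5B* a motor of vesicle transport. The genes most like *CDKN1A* were *LINC00339* (r = 0.96, rho = 0.90), *LCMT2* (r = 0.94, rho = 0.83) and *TMPPE* (r = 0.93, rho = 0.76). These values describe 12 libraries that fall into 6 groups and share the scaling of their library.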

How the data were processed

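According to the study's methods, CLC Genomics Workbench was used to trim and align reads against GRCh38 (Ensembl genes), to count reads of either strand and to normalize. The deposited signal values are CPM with a further scaling per library (0.959 to 1.036, 1 column per library, no pooling). In every library 100% of the values up to 1000 reads were whole multiples of 1 read within 0.02, and reads were recovered from them. The labels name a stranded kit, a column extraction and a NovaSeq instrument, the study's text another extraction and instrument.

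log2(CPM + 1) was fitted with limma 3.58.1 (trend, robust) over 12 libraries as 6 groups, keeping 17982 genes by filterByExpr of edgeR 4.0.16 (10 reads at least, 15 in total). Calls used FDR < 0.01 by Benjamini-Hochberg over all genes tested and fold change > 1.5, the study's thresholds. There were 11 comparisons. The fit was tested on simulated data with 17982 genes for siPDL1-2 against siNC after IFNγ. It found 196 of 200 genes with a log2 change of 0.8, and made 1 false call. Smaller changes, which most calls of members had, were not simulated, so this recovery does not describe them. Recovery was not given by level either, so it does not describe members at few CPM, such as *CDKN1C* and *CCND2*. Copies of a library would give a chi-square of about 0 between replicates, and the lowest found was 1.85. The chi-square was unequal between groups. In unstimulated cells it was 3.25 with siNC, 1.85 with siPDL1-1 and 2.26 with siPDL1-2. With IFNγ it was 6.90, 7.76 and 4.04 in the same order. The fit gave each gene 1 spread shared by all 6 groups, so its p-values do not allow for such inequality.

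Alternatives were a pseudocount of 0.1, no filter, edgeR's quasi-likelihood test and DESeq2 1.42.0 on the recovered reads (by edgeR from 163 genes beside 174 for the dependence of the siPDL1-1 effect on IFNγ to 755 beside 562 for siPDL1-2 against siNC after IFNγ and 1054 beside 783 for siPDL1-1 against siPDL1-2 in unstimulated cells), DESeq2's size factors, fits on the compared libraries, the replicate number as a block, leaving out each library, and transcript length. The members, the lists (G1/S pathway, p53-responsive, proliferation, type I interferon-responsive, IFNγ check genes, glial and glioma, other cell types) and the tests were chosen with earlier results of these data known. Named genes are the members, *CD274*, the check genes, up to 3 called genes per list and direction in a comparison with the largest changes (the text gives those that bear on the members), the genes most correlated with *CCND1* and *CDKN1A*, and genes overlapping members or near *CDKN2A*. Outside this rule, and chosen after their values were seen, are the genes near *CDKN2C* and the genes named for their levels alone (*CDK2*, *CDK4*, *CDKN2D*, *VIM*, *CD44*, *NES*, *OLIG2*, *AQP4*, *RBFOX3* and *MS4A1*). Exon lengths are from GENCODE release 44 and promoters from RefSeq. Software was matplotlib 3.10.9, scipy 1.17.1, numpy 2.4.6, pandas 2.3.3, Python 3.11.15 and R 4.3.3. *INCR1* knockdown libraries were not analysed here. The result for 1 of the check genes is not reported here.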

Additional observations from a re-analysis of the deposited data

Results flagged for a closer look

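For 5 results the difference between an siRNA and siNC was not the same before and after IFNγ. The test was the interaction term of limma (FDR < 0.01), given on the log2 scale. At this FDR alone, 293 of the 17982 genes tested passed with siPDL1-1 and 3067 with siPDL1-2. *CCND3* with siPDL1-1 gave 0.658 (FDR = 1.10e-04), the only one of the 5 also past the 1.5-fold threshold, from a higher level than siNC after IFNγ. *CCND3* with siPDL1-2 gave 0.474 (FDR = 0.000605), from a lower level than siNC in unstimulated cells. *CCND1* gave 0.485 with siPDL1-1 (FDR = 0.000877) and 0.565 with siPDL1-2 (FDR = 9.78e-05), where the lower levels in unstimulated siPDL1 cells had no counterpart past the threshold after IFNγ. *CDKN1B* with siPDL1-2 gave -0.554 (FDR = 0.00317), from a lower level than siNC after IFNγ. Groups of 2 libraries are too small for a test of outlying samples.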

How the results depend on the processing

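None of the 342 fold changes computed under alternatives for members changed direction. They cover the members called in a comparison by the test used or by any alternative, and those of *CDKN1A*, *CCNE1*, *CD274* and the gene lists were not recomputed. The number of members called moved as follows. DESeq2's Wald test gave 1 in place of 0 for siPDL1-2 against siNC in unstimulated cells (*CCND3*), and edgeR's quasi-likelihood test, the Wald test and DESeq2's size factors each gave 1 in place of 0 for the dependence of the siPDL1-2 effect on IFNγ (*CCND1*). Leaving out each library in turn, where the lone library is assumed to vary like the other groups, gave 0 to 2 members for IFNγ with siNC, 1 to 4 for IFNγ with siPDL1-1, 1 to 2 for siPDL1-1 against siNC after IFNγ, and 0 to 2 for the dependence of the siPDL1-2 effect on IFNγ, where *CDKN1B* was called without any of 4 libraries in turn (-0.59 to -0.64) and *CDKN1C* (0.76) and *CCND1* (0.61) without siNC with IFNγ replicate 1. *CDKN1B* with siPDL1-1 after IFNγ was called without siNC replicate 2 (-0.61) or siPDL1-1 replicate 2 (-0.64), and its IFNγ effect with siPDL1-1 without siPDL1-1 with IFNγ replicate 1 (0.63). The IFNγ effect on *CCND2* with siPDL1-1 was also called without that last library (0.62). The number of all genes called for that dependence ranged from 888 (without siPDL1-2 with IFNγ replicate 2) to 1663, beside 1370. With the longest transcript as length, *CDKN1A* ranked 2, *CCND3* 1, *CCND1* 4 and *CDKN1B* 3. Of those 342 fold changes, 322 kept their side of the thresholds. The causes were not tested.

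Pairing of the libraries by replicate number was not evident, as the differences between replicates 1 and 2 correlated between -0.197 and 0.244 over 15 pairs of groups. These correlations cannot exclude that a replicate number marks 1 experiment. With the replicate block, 1467 genes in place of 1460 were called for IFNγ with siNC, and no call of a member changed. DESeq2's size factors shifted the median of all genes by at most 0.0291. *CDKN1C*, *CCND2* and *CCNE1* rest on the fewest reads of the tested members, with 1426, 1586 and 2589 over the 12 libraries.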
